A study of Mus musculus with 10 samples.

Results

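The Sfmbt2 intron cluster is a run of microRNA genes of the miR-297, miR-466, miR-467 and miR-669 families inside 1 gene on mouse chromosome 2. Its members were chosen by position alone. Every entry of the deposited table that lay on the plus strand within Sfmbt2 (chr2:10370510-10595253, GRCm38, GENCODE M21 annotation) was taken, which gave 55 of 1340 mature miRNAs. Of these 55 entries, 47 held distinct values and 14 were identical in every library to another entry, so 1 set of values stands for several copies.

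MicroRNAs are cut from hairpin precursors, and either arm of the hairpin, 5p or 3p, can be loaded into an Argonaute protein, where the seed near the 5′ end pairs with target messenger RNAs. Sfmbt2 encodes a Polycomb group protein and is imprinted, with expression from the paternal allele, and it is known for its role in the placenta. Its intronic miRNA cluster is a rodent expansion of near-identical hairpins, best studied in the placenta and in embryonic stem cells.

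Small RNA was sequenced from a tissue labelled as the retinal pigment epithelium (RPE), choroid and sclera, the layers behind the neural retina. The 10 libraries are of C57BL/6J animals, wild type, taken at postnatal day 34. According to the treatment protocol, 1 eye of each mouse looked through a -20 D lens for 10 days from postnatal day 24, and the contralateral eye did not. Such a lens is a standard way to induce myopia. Each library is labelled left or right and carries a number, with no record of which side had the lens, so the groups compared were 5 left and 5 right eyes, numbered 61, 64, 65, 66 and 68, and neither group can be called treated. All animals shared the strain, the age and the lens procedure. Whole tissue was used, so fewer cells of a type and less RNA per cell cannot be told apart.

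Each library summed to between 11878152 and 11879036 units of normalised signal. Sorted by size, the libraries also held nearly the same values: over the 500 highest ranks the median coefficient of variation between libraries at a given rank was 0.306%. Of 190 values of the tested members, 174 (91.6%) recurred exactly in another library. A signal therefore tells mainly the rank of a miRNA in its library, and shares, SDs and fold changes below are on that scale. The sequencing depth is unknown and no counting interval can be given. The 3 RPE and melanocyte markers (miR-204-5p, miR-204-3p and miR-211-5p) held 16.6% of the signal. Nearly all of it was miR-204-5p, whose value was 1931810 in all 10 libraries, so this share says that it is highly ranked and does not measure how steady the tissue content was. The extract protocol speaks of retinae, and the tissue label was followed. Right eye 68 stood apart: its 5 retina and neuron markers summed to 1330350, against 188960 to 473451 in the other 9 libraries. Right eye 66 had the lowest sum of surface epithelium, cornea and lens markers (8 miRNAs), 25706 against 61101 to 246299 in the other 9 libraries. Its sum of endothelial markers (2 miRNAs) was the highest, 341646 against 198138 to 266681. Leaving out a number drops both of its eyes. The surface epithelium sum was lower in the right eye of 4 of 5 numbers (157567 ± 71081 left, 105427 ± 74236 right, SD, n = 5 each). By mean over the 10 libraries, miR-184-3p held 118434 of the surface epithelium sum of 131497. Likewise miR-182-5p held 340524 of the retina and neuron sum of 396683. Both sums therefore follow mainly a single miRNA and do not by themselves show whether all their markers moved alike. By limma estimate with the number as a block, all 8 surface epithelium markers were lower in the right eye. Their log2 fold changes ran from -1.28 (miR-205-5p) to -0.24 (miR-203-3p), and miR-184-3p stood at -0.76. The 5 retina and neuron markers ran from -0.02 (miR-124-3p) to 0.30 (miR-9-5p). No marker of either set reached an adjusted p under 0.05. The part of these markers in the comparison of sides was not tested.

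The mature sequences of the 55 entries are not shown. For 3 relatives that the table places on other chromosomes, of the miR-466 and miR-467 families only, RefSeq sequences (GRCm38.p6) are printed 5′ to 3′ with the seed, bases 2 to 8, in capitals. They are shown because 1 of them, miR-467h, shared values with a cluster entry in part of the libraries. How like the cluster's own sequences they are was not examined.
miR-466i-3p (chr13:17747552-17747573, plus strand): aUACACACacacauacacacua
miR-466q (chr3:28419988-28420007, plus strand): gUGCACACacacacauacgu
miR-467h (chr9:115381898-115381919, plus strand): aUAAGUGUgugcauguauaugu
The 3 seeds all differ. The miR-466 sequences run on in a CA repeat, and miR-467h carries a GU run. The letters CACACA, searched on the mature strand with overlaps allowed, occurred in 8 of 1131 mature sequences of the table (0.707%), miR-466i-3p and miR-466q among them. The letters UGUGUG occurred in 19 of 1131 (1.68%), miR-467h among them. Such a match describes the letters only. The 1131 sequences are those that RefSeq gives for entries of the table, and they include 0 of the 55 cluster entries. Both shares therefore leave the cluster out.

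All 55 entries lay between chr2:10466677 and chr2:10518197, a stretch of 51521 bases. They fell within 1 intron of 62472 bases (chr2:10461473-10523944), which is intron 11 of the principal coding transcript and intron 10 of another, and 0 of 55 overlapped an exon of any annotated Sfmbt2 transcript. RefSeq places 72 hairpin genes in Sfmbt2: 29 of the miR-669 family, 23 of miR-466, 14 of miR-467, 5 of miR-297 and 1 other. Several carry 1 name many times over, with 12 copies of miR-669a, 10 of miR-467a and 8 of miR-466b, while the table has 1 position for each mature name. The widest gap between neighbouring entries, 16564 bases from miR-669p-3p to miR-467e-5p, held 16 RefSeq hairpin genes, 14 of them copies of those 3 names. The deposited positions therefore cover the intron unevenly, and a value is not tied to 1 locus.

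**Figure D1:**
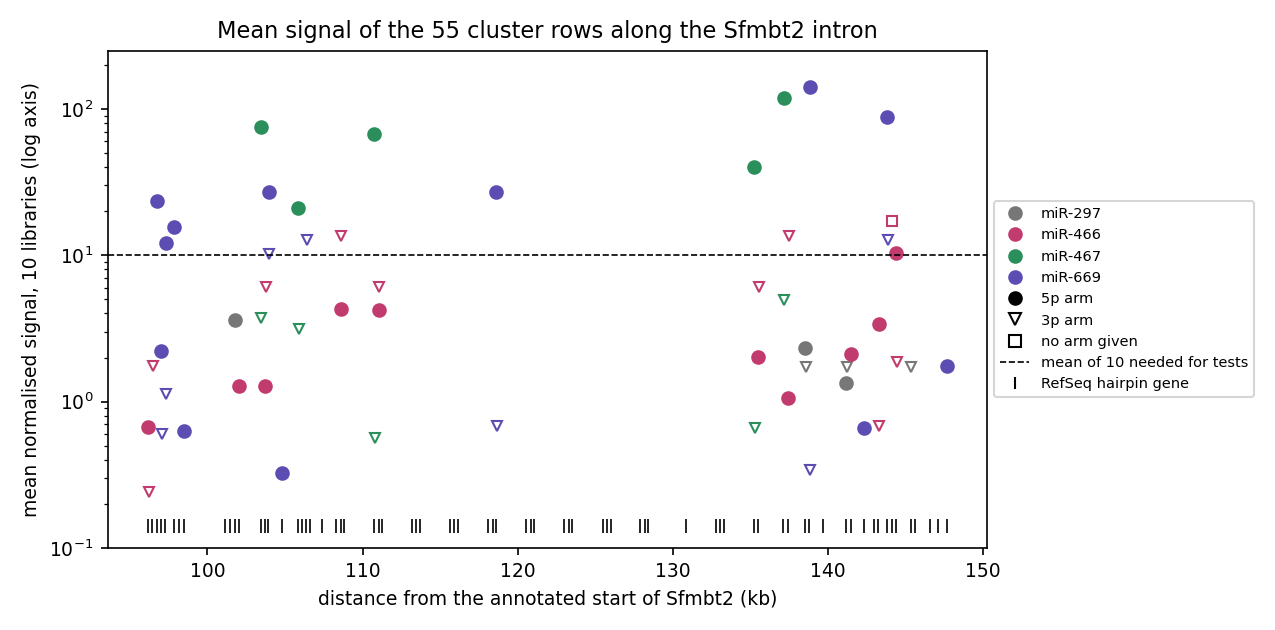
Mean normalised signal of each cluster entry (log axis) against its distance from the start of Sfmbt2, coloured by family, with 5p arms filled, other entries open, RefSeq hairpin genes as ticks and a dashed line at the mean of 10 needed for a test. The entries with the highest means, miR-669c-5p and miR-467d-5p, lay near each other in the distal group, and the widest gap between entries was dense in hairpin genes.

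The identical entries formed 6 groups. They were miR-297a-3p with miR-297b-3p and miR-297c-3p, miR-466a-3p with miR-466e-3p, miR-466b-3p with miR-466c-3p and miR-466p-3p, miR-466b-5p with miR-466o-5p, miR-669a-3p with miR-669o-3p, and miR-669a-5p with miR-669p-5p. The share of identical entries was 25.5% in the cluster and 3.06% (41 of 1340) in the whole table. Another 13 pairs with a cluster entry were equal in 5 to 9 of 10 libraries and parted in the rest. For example, miR-669a-3-3p equalled miR-669a-3p in 8 libraries, but in left 65 they stood at 1.40 and 13.2, and in right 66 at 1.71 and 14.8. Likewise miR-467b-3p and miR-467c-3p were equal in 8 libraries, and in right 65 stood at 0.751 and 32.3. A library that parts such a pair moves the single entry, so values of single copies are uncertain.

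Values above 0 also ran far below 1. Among the 510 cluster values above 0, 25 (4.90%) were under 0.1, down to 4.42e-22, against 0.195% of those in the rest of the table. At least 1 such value occurred in 13 of 55 cluster entries (23.6%) and in 13 of 1285 others (1.01%). A value above 0 in these entries need not stand for a whole read, and detection is not counted from it here.

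The cluster held a small share of the normalised miRNA signal in these libraries. The handling of reads with several matches is not given, so its level in the tissue itself is not known. Its 55 entries summed to 824 ± 94.6 units (SD, n = 10), which was 0.00693% ± 0.000797 of the signal, and 0.00711% without number 68. With each set of identical entries counted once, the sum was 754 ± 95.2. The imprinted miRNA cluster between Dlk1 and Dio3 on chromosome 12, with 96 entries, held 3.71% ± 0.475 of the signal in the same libraries. Of the 55 entries, 19 (16 distinct) had a mean signal of at least 10 and were tested, as were 588 miRNAs of the table in all. The 6 highest entries held 70.3% of the cluster's signal with copies counted once. Mature miRNAs are of similar length, so signals are compared between them without a length correction.

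**Figure D2:**
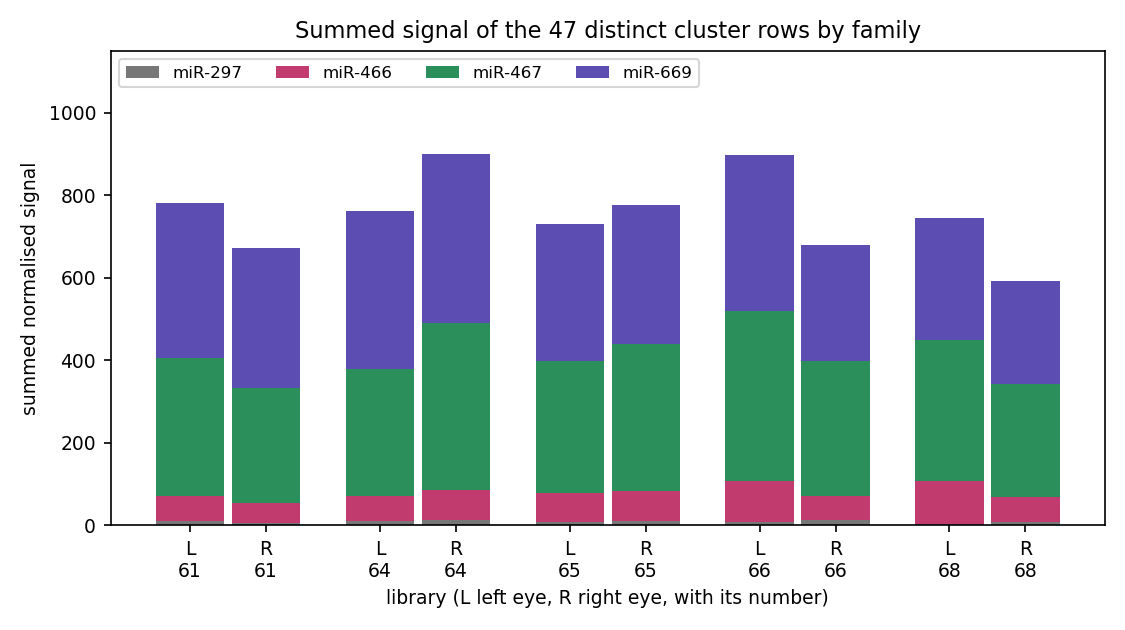
Summed normalised signal of the cluster in each of the 10 libraries with copies counted once, split by family. The miR-467 and miR-669 families made up most of each sum, and right eye 68 had the lowest sum, 593.

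The miR-669 and miR-467 families carried most of the signal, with sums of 338 ± 50.1 and 336 ± 46.5 (SD, n = 10, copies once). The miR-466 family followed with 70.9 ± 17.3 over 16 distinct entries, beside 17 for miR-669 and 10 for miR-467, and the miR-297 family summed to 9.02 ± 2.99 over 4. None of the miR-297 entries reached a mean of 10.

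The highest member was miR-669c-5p (chr2:10509319-10509340), a 5p arm that ranked 310 of 1340 by mean. Its signal was 157 in left 61, 154 in right 61, 173 in left 64, 143 in right 64, 159 in left 65, 129 in right 65, 193 in left 66, 124 in right 66, 100.2 in left 68 and 78.9 in right 68, a mean of 141 ± 34.1 (SD, n = 10). Both eyes of number 68 were the lowest, and the sides overlapped. miR-467d-5p (chr2:10507640-10507661) came next with a mean of 118 ± 12.9. Its values were 124 and 134 in left and right 61, 111 and 139 in 64, 125 and 122 in 65, 119.6 and 99.3 in 66, and 106 and 105 in 68. It was the steadiest member, with a coefficient of variation of 10.9%. Of 118 other miRNAs with a mean within 2-fold of its own, 5.93% varied less, and their median coefficient of variation was 23.1%.

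miR-669o-5p had 103 and 97.7 in left and right 61, 100.2 and 106 in 64, 70.7 and 100.2 in 65, 91.4 and 45.1 in 66, and 88.3 and 72.9 in 68, a mean of 87.6 ± 19.2. Right 66, the library with the marker sums noted above, was its lowest, as it was for miR-467d-5p. miR-467c-5p had 75.4 and 20.1 in left and right 61, 91.4 and 94.8 in 64, 74.0 and 91.4 in 65, 109 and 69.7 in 66, and 91.4 and 38.4 in 68, a mean of 75.6 ± 27.3. Its left eyes stayed between 74.0 and 109, and 2 right eyes, 61 and 68, lay far below them. miR-467b-5p averaged 67.5 ± 19.7, with 51.5 and 63.4 in left and right 61, 68.8 and 109 in 64, 72.3 and 36.8 in 65, 78.2 and 57.5 in 66, and 81.3 and 56.6 in 68. Its highest and lowest libraries were both right eyes. In the order of means, neighbours from miR-669c-5p to miR-467b-5p differed by less than the larger of their SDs, apart from miR-467d-5p and miR-669o-5p, whose means were 118 and 87.6.

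miR-467e-5p was lower, at 39.8 ± 14.4. It had 35.4 and 53.1 in left and right 61, 28.5 and 39.3 in 64, 20.9 and 27.8 in 65, 62.7 and 61.5 in 66, and 35.4 and 33.9 in 68. Both eyes of 66 were its highest and both eyes of 65 its lowest. miR-467h, a relative on chromosome 9, equalled miR-467e-5p in 5 of 10 libraries and averaged 25.0 ± 11.2.

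Below these, single libraries weighed heavily. The identical miR-669a-5p and miR-669p-5p averaged 27.0 ± 14.2 and ran from 5.85 in right 68 to 47.4 in left 65. miR-669f-5p averaged 23.4 ± 25.6, with 48.4 and 12.8 in left and right 61, 23.8 and 85.4 in 64, 3.63 and 14.3 in 65, 4.06 and 15.0 in 66, and 3.18 and 23.2 in 68. Its coefficient of variation, 109.6%, was above that of 100% of 146 miRNAs of like level, and right 64 was far above the rest. miR-467a-5p averaged 21.1 ± 15.4: left 61, right 65, left 66 and right 66 lay between 28.0 and 45.0, and the other 6 libraries between 6.17 and 23.1.

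The remaining tested members averaged between 10.2 and 17.3. miR-466g, which the table gives no arm, had 17.3 ± 7.51, with 7.15 in left 64 and 33.1 in left 66. miR-669d-5p had 15.7 ± 5.20, the identical miR-669a-3p and miR-669o-3p 12.7 ± 4.30, miR-669b-5p 12.1 ± 3.90, miR-466h-5p 10.3 ± 5.22 and miR-669a-3-3p 10.2 ± 6.24. The identical miR-466a-3p and miR-466e-3p averaged 13.6 ± 10.1. They stood at 1.45 and 8.95 in left and right 61, 17.2 and 18.5 in 64, 1.38 and 17.9 in 65, 16.9 and 1.64 in 66, and 32.5 and 19.9 in 68. The values thus fell in a low set of 3 libraries under 2 and a set of 7 from 8.95 upwards.

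**Figure D3:**
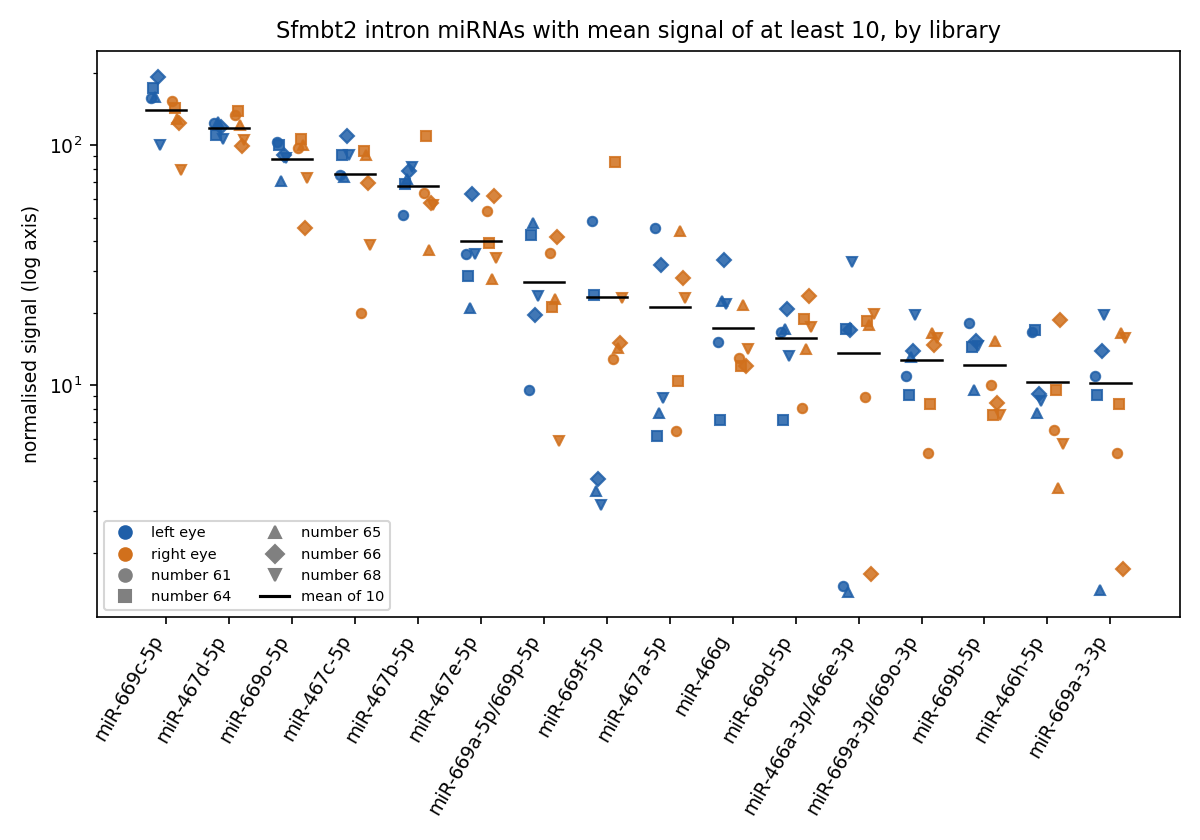
Normalised signal of the 16 distinct tested members in every library (log axis), with the side by colour, the number by symbol and the mean of 10 libraries as a bar. miR-467d-5p was the tightest, between 99.3 and 139, and miR-669f-5p the widest, between 3.18 and 85.4.

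The 36 entries under the threshold (31 distinct) had means from 0.243 to 6.09. The nearest to it were miR-466b-3p, miR-466c-3p and miR-466p-3p, which share values with a mean of 6.09 ± 4.71. Then came miR-467d-3p at 4.97 ± 6.20, with 18.7 in left 65 and 0.0714 in right 68, and miR-466e-5p at 4.27 ± 4.94. The last had 12.2, 10.1, 3.59, 11.3 and 0.0268 in left eyes 61 to 68 and 2.25, 1.84, 0.799, 0.533 and 0.000768 in the right eyes. Its left value was higher in each number, but the sides overlapped through left 68, and in 68 both values were under 0.1. miR-466e-5p equalled miR-466b-5p and miR-466o-5p in 6 libraries and parted from them in left 61, 64 and 66 and right 66. There those 2 entries stood at 0.480, 0.0431, 0.905 and 2.75, and their right eye was the higher in 61, 64 and 66. The difference between the sides is therefore uncertain for this entry. Among all 36 entries, 9 reached 10 in at least 1 library, and the highest single value was 32.3, for miR-467c-3p in right 65.

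The 5p arm had the higher mean signal in the miR-467 and miR-669 families. Of 22 hairpin names with both arms in the table, 16 had the higher mean on the 5p arm and 6 on the 3p arm. All 5 miR-467 names favoured 5p in each of 10 libraries, and all 6 miR-669 names favoured it by mean, 4 of them in each of 10 libraries. miR-669c gave 141 ± 34.1 on its 5p arm and 0.338 ± 0.745 on its 3p arm, and miR-467b gave 67.5 ± 19.7 and 0.568 ± 0.553. The miR-466 family was mixed, with 3 of 8 names higher on 5p and 5 on 3p. miR-466a had 1.07 ± 1.24 on 5p and 13.6 ± 10.1 on 3p, and miR-466b was higher on 3p in all 10 libraries. Of the 3 miR-297 names, 2 had the higher 5p mean, and all 3 share 1 set of 3p values. For miR-297a and miR-669a the 2 arms are placed on different hairpin copies, 43605 and 2448 bases apart. Arms with shared values are no independent count. The 3p entries of miR-467 also share values in part: miR-467b-3p and miR-467c-3p were equal in 8 of 10 libraries. The handling of reads with several matches is not given. The low 3p levels, and with them the size of the 5p excess, are therefore uncertain.

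**Figure D4:**
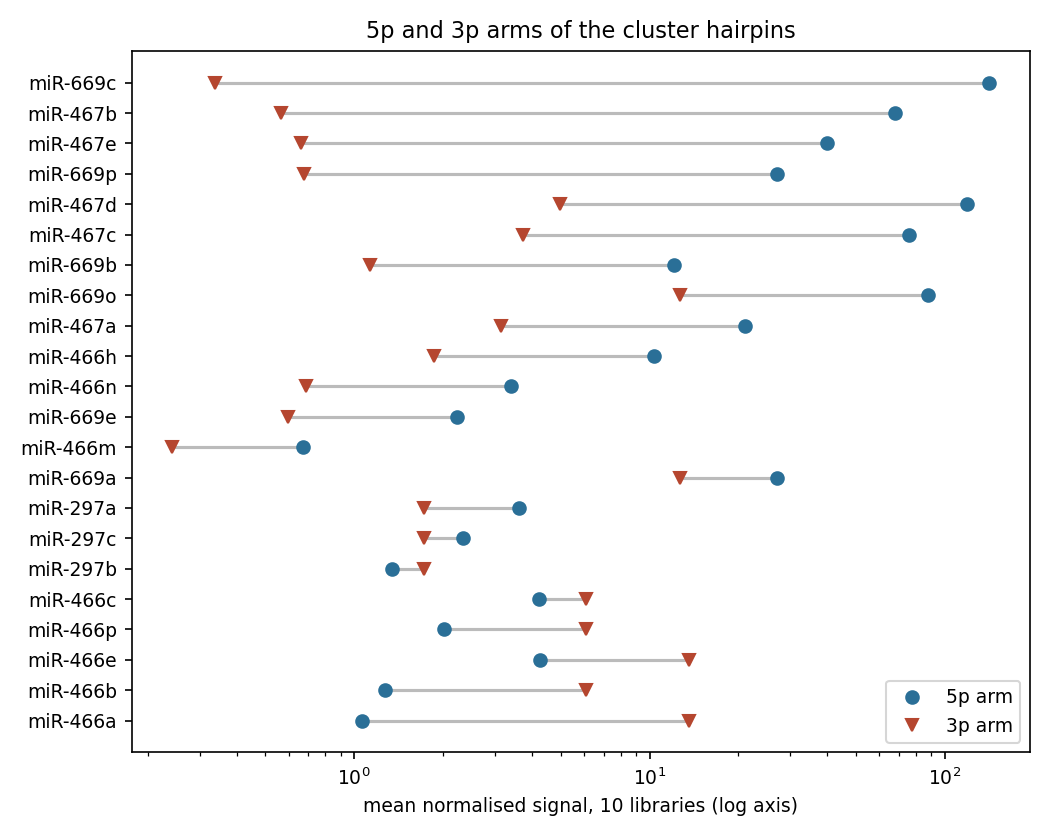
Mean normalised signal over 10 libraries (log axis) of the 5p arm (circles) and the 3p arm (triangles) of the 22 hairpin names with both arms. The 5p circle lies to the right for all miR-467 and miR-669 names, and the 3p triangle for 5 of 8 miR-466 names.

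The right eye was compared with the left of the same number, since the study's protocol sets an eye against its fellow. No member differed at an adjusted p under 0.05 (limma with the number as a block, Benjamini-Hochberg over 588 miRNAs). The background was the same, with 0 of 588 called, or 0%, and 13 at an unadjusted p under 0.05. Of the 19 members tested, 12 were lower and 7 higher in the right eye by estimate, or 10 and 6 of the 16 distinct members. Over all 588 miRNAs, 269 were lower and 319 higher. The median log2 fold change was 0.02 over all 588 and -0.19 over the members. The sign of the members' median turned, to 0.024, with no filter on low signal, where 27 of 55 members were lower. It was -0.11 with a pseudocount of 10, -0.091 without number 61, -0.044 without 66, -0.11 without 68 and -0.32 without 65. Without number 68, 10 of 19 were lower. The 16 distinct sets of values overlapped between the sides in every case, and the overlap was not counted over the other miRNAs.

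Only 1 member, miR-669c-5p, had an unadjusted p under 0.05. Left eyes averaged 156 ± 34.6 and right eyes 126 ± 28.6 (SD, n = 5 each). The signal was lower in the right eye of all 5 numbers, by log2 differences from -0.03 in 61 to -0.64 in 66. Of the 16 distinct members, 1 kept a single direction in all 5 numbers, and this was not counted over the other miRNAs. The log2 fold change on signal plus 1 was -0.32 (SE 0.119, 95% interval -0.60 to -0.04), with a limma p of 0.0319 and an adjusted p of 0.967. Without number 68 it was -0.31, and over the numbers left out in turn it lay between -0.24 and -0.39. For miR-467d-5p the sides were close, at 117 ± 8.28 and 119.8 ± 17.4, with a log2 fold change of 0.02 (95% interval -0.26 to 0.31).

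The extremes of the estimates were miR-467c-5p and miR-669f-5p, and both 95% intervals took in 0. For miR-467c-5p the left mean was 88.2 ± 14.3 and the right mean 62.9 ± 32.8, which gave -0.67 (SE 0.322) on the log2 scale. This estimate was -0.38 without number 61, -0.54 without 68, -0.68 without 66, -0.86 without 64 and -0.92 without 65. For miR-669f-5p the means were 16.6 ± 19.8 and 30.2 ± 31.2, and the log2 fold change was 1.18 (SE 0.617, 95% interval -0.28 to 2.64), and it was higher in the right eye of 4 of 5 numbers. The latter was 0.63 with a pseudocount of 10, 1.93 without number 61, 1.02 without number 64 and 0.84 without number 68. Its limma adjusted p was 0.336 or more in all of these. For miR-467a-5p the log2 fold change was 0.31, and 0.060 without number 68. The 95% interval lay within 2-fold either way for 8 of 19 members, against 497 of 588 miRNAs (84.5%). A 2-fold difference was therefore not excluded for most members.

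**Figure D5:**
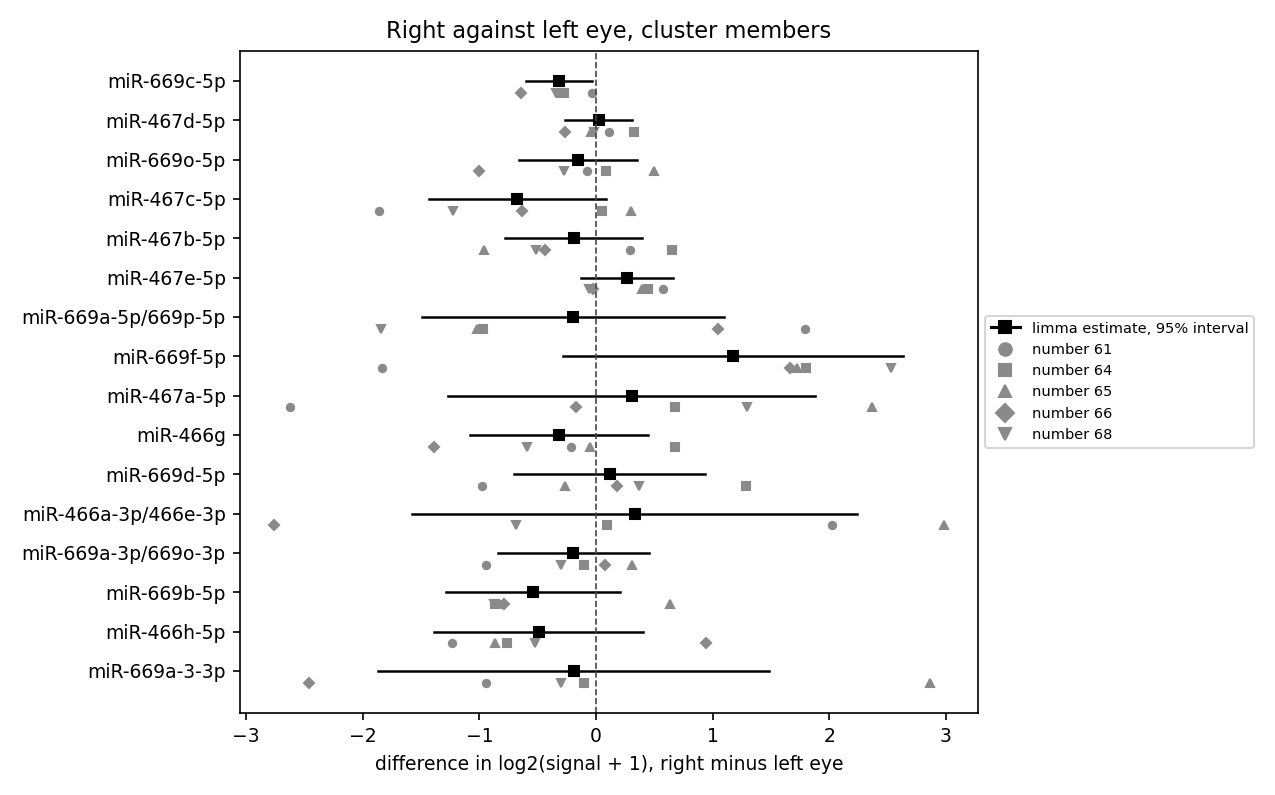
Right minus left log2 fold change of each distinct tested member with its 95% limma interval, and the difference within each number as points. The estimates run from -0.67 to 1.18, and the interval of miR-669c-5p alone leaves out 0 before adjustment.

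The direction varied with the number. Of 16 distinct members, 5 were higher in the right eye of number 61, 10 of 64, 9 of 65, 5 of 66 and 3 of 68. The summed signal with copies once averaged 783 ± 66.7 over left eyes and 724 ± 117 over right eyes (SD, n = 5 each). It was higher in the right eye of 2 of 5 numbers. By number, the log2 ratio of the sum over all 55 entries, right over left, was -0.16 in 61, 0.20 in 64, 0.03 in 65, -0.31 in 66 and -0.39 in 68. The mean ratio was -0.12, and without number 68 it was -0.06. Right eye 68 had the lowest sum, 593, against 673 to 899.8 in the other 9 libraries. It was also the library with the highest sum of retina and neuron markers, whose part in this value was not tested.

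Arm use was compared as the log2 ratio of 5p to 3p signal, each plus 1, for the 158 hairpins with both arms at a mean of at least 10. In the cluster, 2 qualified. The ratio for miR-669a was 0.88 in both left and right eyes (limma adjusted p = 0.992), and that for miR-669o was 2.71 and 2.75 (limma adjusted p = 0.974). Over all 158 hairpins, 0 (0%) were called and 3 had an unadjusted p under 0.05. The 2 hairpins share their 3p values. The equal means for miR-669a do not show a steady ratio. Right minus left, its 5p entry ran from -1.84 in number 68 to 1.79 in number 61 on the log2 scale. Its 3p entry ran from -0.94 in number 61 to 0.31 in number 65. As given above, the 2 arms of miR-669a are also placed on different hairpin copies.

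The labels give a number to each pair of eyes, so differences between numbers were also tested, with the side as covariate. A number can stand for the animal and for anything its libraries share, which the labels do not state. By limma's moderated F test, 7 of 588 miRNAs (1.19%) differed between numbers at an adjusted p under 0.05, and 0 of 19 members did. At an unadjusted p under 0.05 there were 137 of 588 (23.3%) and 2 of 19. The 2 members were miR-669c-5p and miR-467e-5p, each with a limma adjusted p of 0.123. Without number 68 the lowest adjusted p among the members was 0.272. The 7 calls in the table became 0 without number 61, 64 or 68, 1 without 65 and 22 without 66. miR-669c-5p averaged 89.6 over the eyes of number 68 and between 144 and 159 in the other 4 numbers. miR-467e-5p averaged 62.1 in number 66 and 24.4 in number 65, with the other 3 numbers between 33.9 and 44.2.

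No library was highest for most members. Left 66 and right 64 were each highest for 4 of 16 distinct members, and left 68 for 3. By the median rank among 10 libraries, left 66 (7.5) and right 64 (7) were the highest and right 66 and right 68 (3.5 each) the lowest. The coefficients of variation of the 5 miR-467 5p arms ranged from 10.9% to 72.8%.

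Outside Sfmbt2 the table held 4 entries of these families. miR-467h averaged 25.0 ± 11.2, miR-466i-3p 8.67 ± 4.92, miR-466i-5p 2.40 ± 1.83 and miR-466q 0.381 ± 0.648. The relatives on other chromosomes were thus within the range of the cluster's own members.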

How the data were processed

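Values are the authors' normalised signal, deposited for 1340 mature miRNAs and 10 libraries. The authors used Bowtie and Partek with GRCm38 (mm10), per the submitters' processing notes. Versions, the handling of reads with several matches and the normalisation are not given in the sources used here. From the values, the libraries share nearly 1 set of signals by rank, as rank-based scaling would leave. Library preparation used a TruSeq small RNA kit, per the labels' protocols. The deposited end was 1 base past the RefSeq end for 1133 of 1133 matched entries, so ends are given 1 lower. Of the 55 members, 0 matched a RefSeq mature sequence in the table used, and 1135 of 1340 entries did.

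Signals were tested as log2(signal + 1) after keeping miRNAs with a mean of at least 10, with limma 3.58.1 in R 4.3.3, a mean-variance trend and Benjamini-Hochberg adjustment over all 588 kept. Arm ratios were fitted without the trend. The code was tested on simulated data. The number was used as a block, because left and right eyes share it in their titles and the protocol compares an eye with the contralateral eye of the animal. The deviations of the paired libraries correlated at 0.12, 0.45, 0.01, -0.13 and 0.28 for numbers 61, 64, 65, 66 and 68. Nothing else says how samples were replicated. The p-values for side rest on the spread of the right-left differences within these numbers, with variances moderated over miRNAs. The F test sets the differences between numbers against that same spread.

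Members were named by level: those with a mean of at least 10, and the highest 3 sets of values below. The members and lists were chosen with earlier results of these data known. Alternatives were a pseudocount of 10, no filter, a mean of at least 50, no block, median centring, no trend, identical entries once, and each number left out.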

Additional observations from a re-analysis of the deposited data

Results flagged for a closer look

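The spread within a side was checked for a single library far from the other 4, by the gap to its neighbour over the whole range (above 0.71 for 5 samples). This was done in 42 groups of 5 values, of which 2 stood out; chance gives about 1 in 20 groups. miR-669f-5p was 85.4 in right eye 64, and 12.8 to 23.2 in the other right eyes. miR-466g was 21.6 in right eye 65, and 11.99 to 14.2 in the other right eyes.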

How the results depend on the processing

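No member was called in any alternative, for side or for number, and the lowest member adjusted p values (limma) were 0.336 and 0.0851. Between the sides no miRNA of the table was called in any alternative. The median log2 fold change of the members was -0.19, and 0.024 with no filter on low signal. Leaving out each number gave -0.32 (without 65) to -0.044 (without 66), and the summed ratio ran from -0.21 to -0.06. Without the replicate block the median stayed at -0.19, with 0 called and 12 at an unadjusted p under 0.05. Members kept were 55 with no filter and 5 at a mean of at least 50. The number of miRNAs called between numbers was 16 at a mean of at least 50, 12 with median centring, 0 without the trend, and 0 (without 61, 64 or 68), 1 (without 65) and 22 (without 66) with a number left out; the cause was not tested. Arm ratios gave 0 to 1 called hairpins, with 1 without number 61. Of the 19 members, 10 kept 1 direction in every alternative. The other 9 changed it in 13 of their 83 alternatives, all from leaving out a number, over which the log2 fold change ran from -0.33 to 1.10 for miR-466a-3p and miR-466e-3p, -0.21 to 1.04 for miR-467a-5p, -0.052 to 0.097 for miR-467d-5p, -0.95 to 0.38 for miR-669a-3-3p, -0.70 to 0.21 for miR-669a-5p and miR-669p-5p, -0.17 to 0.39 for miR-669d-5p and -0.32 to 0.058 for miR-669o-5p. With depth unknown, the limit set by low signal could not be given as counts.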

Other observations

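The miR-466 3p entries with shared values were set side by side after their values had been seen. miR-466a-3p with miR-466e-3p was lowest in left 65 (1.38), left 61 (1.45) and right 66 (1.64). miR-466b-3p with miR-466c-3p and miR-466p-3p was highest in left 65 (14.1) and right 66 (12.8), and stood at 7.39 in left 61. Added together, the 2 sets of values ran from 8.84 in left 61 to 40.9 in left 68.

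The 3p arms of miR-467a and miR-467d were low in most libraries and high in a few. miR-467d-3p reached 18.7 in left 65, 9.60 in right 64, 8.66 in left 68 and 8.38 in right 66. miR-467a-3p reached 16.9 in right 68 and 8.66 in left 68, and both were under 2 in the remaining libraries. The 2 entries held equal values in 6 libraries, left 68 among them, and parted in right 64, left 65, right 66 and right 68. Their likeness is thus largely one of shared values. miR-467c-3p also equalled miR-467a-3p in 6 libraries, and it reached 32.3 in right 65. These values were also picked out after they had been seen.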
